A study of Homo sapiens with 6 samples.

Results

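The sestrins and the metabolic control genes of the p53 response were followed in U-2 OS cells, a human osteosarcoma line, after ionizing radiation (IR). The group holds 10 genes, taken by gene symbol from 21447 genes with a summed estimated count. They are the sestrin genes SESN1, SESN2 and SESN3, the metabolic enzymes and assembly factors TIGAR, GLS2 and SCO2, the beta subunits of AMP-activated protein kinase (AMPK) PRKAB1 and PRKAB2, and DDIT4 and TSC2, which restrain mTOR complex 1 (mTORC1). RNA was sequenced from 3 untreated libraries and from 3 libraries of cells collected 24 h after 4 Gy of IR. The labels name no genetic change or drug in either group. The study's methods describe the samples of a group as independent, but neither they nor the labels say whether these came from separate cultures, so that p-values measure the spread between these libraries, which may be technical.

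Sestrins are stress-induced proteins that support the recycling of peroxiredoxins and hold back mTORC1. They bind the GATOR2 complex, which relieves its block on GATOR1 and thereby switches off the Rag GTPases, and they promote phosphorylation of TSC2 by AMPK. The TSC1-TSC2 complex inactivates the GTPase RHEB, the direct activator of mTORC1, and DDIT4 (also called REDD1) acts through the same complex. TIGAR lowers fructose-2,6-bisphosphate and turns glucose towards the pentose phosphate pathway, GLS2 is a mitochondrial glutaminase, and SCO2 delivers copper to cytochrome c oxidase. All of these genes except SESN3, which is known mainly as a FOXO target, have been described as p53-inducible, in some cases only in particular cells.

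The 6 libraries held between 18573309 and 45308792 estimated counts, with the highest total in IR replicate 3. The mesenchymal genes VIM (1121 to 1476 TPM), SPARC (1792 to 2022 TPM) and COL1A1 (443 to 641 TPM) were high in every library, whereas COL1A2 was at or below 0.896 TPM and TWIST1 at or below 0.341 TPM. The T cell marker CD3E was at 0, and of the epithelial markers EPCAM lay between 14.5 and 15.95 TPM, CDH1 between 0.616 and 1.87 TPM and KRT5 between 0.0955 and 0.816 TPM. CDKN1A, the best known p53 target, rose from 122 ± 1.71 to 351 ± 34.9 CPM (normalized counts scaled to a common library total, SD, n = 3), a log2 fold change of 1.53 (adjusted p = 2.83e-05, edgeR quasi-likelihood test), and MDM2, the p53 ubiquitin ligase, rose as well (0.60, adjusted p = 2.90e-04). As these are bulk samples, fewer cells with a transcript and less of it per cell cannot be told apart.

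At 24 h after IR, SESN1 and SESN2 had risen by 1.83-fold and 1.74-fold while SESN3 had fallen, and the other genes of the group changed less or did not pass the test. Of the 10 genes, 9 passed the filter on low counts and were tested with edgeR's quasi-likelihood test at a Benjamini-Hochberg adjusted p of 0.05. SESN1, SESN2, TIGAR, PRKAB1 and TSC2 (5 of 9) were higher after IR, against 15.5% of all 14322 genes tested, and SESN3 (1 of 9) was lower, against 14.5%. SCO2, PRKAB2 and DDIT4 were not called, and GLS2 had too few counts to be tested. The median log2 fold change of the 9 genes was 0.36, beside 0.010 for all genes. In 5 genes every IR library lay above every untreated library, which 23.8% of all tested genes did, and in 1 gene every IR library lay below, which 23.3% did.

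**Figure D1:**
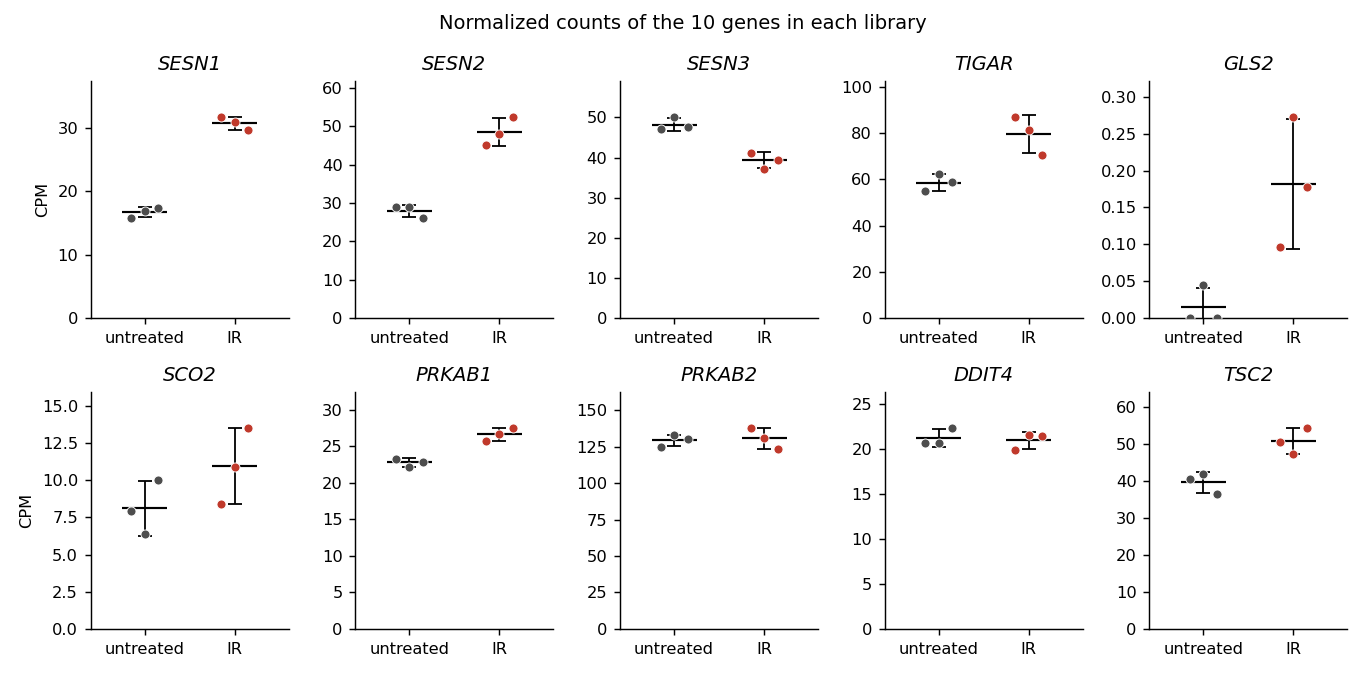
Each panel shows 1 gene, with CPM on the vertical axis from 0 and 3 points per group, untreated in grey and IR in red, with the mean and SD as lines. The groups stand apart for SESN1, SESN2, SESN3, TIGAR, PRKAB1 and TSC2, overlap for SCO2, PRKAB2 and DDIT4, and for GLS2 rest on 0 to 8 estimated counts per library.

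SESN1, the sestrin first found as the p53 target PA26, lies on the minus strand of chromosome 6 (GRCh38, chr6:108984309-109094846). Its level was 15.9, 17.0 and 17.5 CPM in the untreated libraries and 31.7, 30.9 and 29.7 CPM after IR. The lowest IR library stood 12.2 CPM above the highest untreated library, a gap far wider than the spread within either group. The log2 fold change was 0.87 (SE 0.078, 95% confidence interval 0.70 to 1.05, adjusted p = 2.20e-04, edgeR). It passed the threshold under each of 14 other settings of the analysis, with values between 0.76 and 1.00.

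SESN2, a leucine-binding sestrin that is also induced by ATF4 and oxidative stress, lies on the plus strand of chromosome 1 (chr1:28259518-28282491). Its level was 28.9, 28.9 and 26.2 CPM in the untreated libraries and 45.1, 48.1 and 52.4 CPM after IR. Here too all IR libraries were higher, and the spread between IR libraries was wider than for SESN1. The log2 fold change was 0.80 (SE 0.082, interval 0.61 to 0.98, adjusted p = 3.08e-04, edgeR) and was called under the same 14 settings, with values between 0.56 and 0.88.

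SESN3, the sestrin known from FOXO signalling, lies on the minus strand of chromosome 11 (chr11:95165513-95232541) and moved the other way. It stood at 47.1, 50.1 and 47.5 CPM without IR and at 41.2, 37.3 and 39.5 CPM after IR. The groups did not overlap, and the gap between them, 5.92 CPM, was small beside those of SESN1 and SESN2. The log2 fold change was -0.29 (SE 0.070, interval -0.45 to -0.14, adjusted p = 0.0116, edgeR). The call was lost when the trend with GC content was removed (log2 fold change -0.11, adjusted p = 0.272) or effective transcript lengths were used as an offset (-0.29, adjusted p = 0.104), and also without untreated replicate 2 (adjusted p = 0.0585) or IR replicate 2 (adjusted p = 0.0504).

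The balance among the sestrins shifted with these changes. The ratio of SESN1 to SESN3 counts was 0.337, 0.340 and 0.367 in the untreated libraries and 0.770, 0.829 and 0.751 after IR, a log2 difference of 1.17. The ratio of SESN2 to SESN3 went from 0.613, 0.578 and 0.550 to 1.09, 1.29 and 1.33, a log2 difference of 1.09, or 0.67 with the GC trend removed. SESN2 counts were thus below those of SESN3 in each untreated library and above them in each IR library. For both ratios the exact two-sided permutation test gave p = 0.1 (adjusted p = 0.2 over 6 ratios), the smallest value that 3 libraries against 3 allow. The ratio of SESN1 to SESN2 overlapped between groups (log2 difference 0.083, exact permutation p = 0.6, adjusted p = 0.6), and its log2 difference was 0.45 with the GC trend removed and -0.11 from TPM values.

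Levels of different genes were compared per transcript length, in the TPM values of the files. In untreated cells TIGAR had the highest summed value of the group (81.6 ± 5.65 TPM, SD, n = 3), most of it from TIGAR-202, a transcript with no defined coding sequence, while its coding form TIGAR-201 was at 6.59 TPM, below every other gene but GLS2. Next came PRKAB2 (36.7 ± 1.75 TPM) and TSC2 (27.1 ± 3.94 TPM). Of the untreated TSC2 value, 25.2% came from TSC2-226, which held 1.54% to 3.31% of the gene's counts. A further 13.7% came from TSC2-222, annotated for nonsense-mediated decay, with 2.03% to 4.66% of the counts. The place of TSC2 in this order thus rests in part on transcripts with few counts. PRKAB1 (14.1 TPM), DDIT4 (12.1 TPM), SESN1 (11.45 TPM), SCO2 (9.66 TPM), SESN3 (8.39 TPM) and SESN2 (7.49 TPM) followed, and GLS2 was near 0 (0.0146 TPM). The libraries of neighbours in this order overlapped from DDIT4 to SESN1, from SESN1 to SCO2 and from SCO2 to SESN3, and were apart elsewhere. After IR, SESN1 stood at 18.8 ± 1.78 TPM in place 4 and SESN2 at 13.4 ± 2.52 TPM in place 6, whereas SESN3 was at 6.64 ± 0.546 TPM in place 9, above GLS2 alone. Of these neighbours the libraries of SESN1 were apart from those of TSC2 above and PRKAB1 below, those of SESN2 overlapped with PRKAB1 and SCO2, and those of SESN3 lay below all of DDIT4.

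The estimated counts of SESN1 came mainly from a pair of transcripts, SESN1-202 and SESN1-204. Transcript names follow GENCODE, and these 2 share 2479 exonic bases but begin at separate first exons whose starts lie 85291 bases apart. SESN1-202, the transcript with the inner start at position 109009555 of chromosome 6, has 197 bases of its own, all in its first exon, and SESN1-204, the canonical form from the outer start at position 109094846, has 3185, of which 1052 lie in the first exon and 2133 in the last. Reads that fall on shared bases are split between the transcripts by kallisto's estimate, so that these values are less certain than gene totals.

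SESN1-202 stood at 8.63, 10.4 and 8.84 CPM without IR and at 24.7, 25.5 and 26.3 CPM after IR, with no overlap. SESN1-204 stood at 6.03, 5.77 and 7.23 CPM and then at 6.41, 5.33 and 3.28 CPM, with overlapping groups. The log2 fold change of SESN1-202 was 1.46 (SE 0.14, interval 1.12 to 1.79) and that of SESN1-204 was -0.34 (SE 0.31, interval -1.12 to 0.44). The value of SESN1-204 rested largely on IR replicate 3, and was -0.105 without it, -0.22 without untreated replicate 3 and -0.54 without IR replicate 1. By edgeR's quasi-likelihood test over 56720 transcripts neither passed the adjusted threshold (adjusted p = 0.130 and 0.791), and SESN1-202 ranked 21 of all transcripts by p (unadjusted p = 5.89e-05). SESN1-202 was called by DESeq2 (adjusted p = 5.41e-23) and by edgeR's likelihood ratio test (adjusted p = 7.39e-04). The ratio of SESN1-202 to SESN1-204 counts was 1.44, 1.80 and 1.22 in the untreated libraries and 3.85, 4.78 and 7.98 after IR, a log2 difference of 1.85 (exact permutation p = 0.1, the smallest possible). The share of SESN1-202 in the TPM of the gene went from 48.9% to 78.3%. Neither removal of the GC trend nor the effective length offset was applied to transcripts or to the ratio of this pair.

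Over all transcripts the quasi-likelihood test called 0 of 56720, with 6084 (10.7%) at an unadjusted p under 0.05, while DESeq2 called 3002 (5.32%, of which 2.56% higher and 2.76% lower) and the likelihood ratio test 714 (1.26%, of which 0.603% higher and 0.656% lower). Of 126 transcripts of the 10 genes, 40 were tested. DESeq2 called SESN1-202, SESN2-201, TIGAR-201 and TSC2-249 higher and SESN3-203 lower, and the likelihood ratio test called SESN1-202. SESN2 is represented by a single transcript, SESN2-201 (log2 fold change 0.82), and SESN3-203 (-0.26) held at least 97.9% of the counts of SESN3 in every library, so that their transcript and gene values say nearly the same.

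Because the SESN1 transcripts differ at their starts, the 250 bases before each RefSeq start of the gene are shown (RefSeq, GRCh38.p14, minus strand, 5′ to 3′), first the outer start at chr6:109094847-109095096, then the inner start beside SESN1-202 at chr6:109009553-109009802, and then a further inner start at chr6:109008989-109009238. Capitals mark a match to the p53 half-site, the 10-base unit of the p53 response element, searched on both strands.
SESN1 outer start: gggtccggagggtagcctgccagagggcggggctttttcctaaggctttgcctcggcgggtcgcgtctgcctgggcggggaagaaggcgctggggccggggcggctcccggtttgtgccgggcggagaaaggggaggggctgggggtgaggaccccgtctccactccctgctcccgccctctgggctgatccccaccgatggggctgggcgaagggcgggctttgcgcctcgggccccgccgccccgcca
SESN1 inner start of SESN1-202: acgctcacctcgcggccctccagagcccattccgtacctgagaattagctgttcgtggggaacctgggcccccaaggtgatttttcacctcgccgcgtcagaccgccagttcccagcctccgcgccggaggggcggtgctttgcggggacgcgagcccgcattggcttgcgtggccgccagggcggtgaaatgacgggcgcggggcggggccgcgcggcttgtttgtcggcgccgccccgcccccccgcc
SESN1 further inner start: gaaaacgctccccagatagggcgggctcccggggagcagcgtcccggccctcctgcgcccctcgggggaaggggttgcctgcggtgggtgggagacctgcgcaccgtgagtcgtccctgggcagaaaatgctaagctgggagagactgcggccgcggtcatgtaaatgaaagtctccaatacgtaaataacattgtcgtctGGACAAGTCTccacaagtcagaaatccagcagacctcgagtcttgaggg
The match lies at chr6:109009028-109009037, with its first base 49 bases before the further inner start, inside the first intron of SESN1-202. It was the only one in 12 windows of the group, and 5.57% of all 35116 promoter windows of this length held one. Transcript SESN1-201, which uses the further inner start, had a mean of 0.225 CPM after IR, all of it from IR replicate 3, and was at 0 in the other 5 libraries.

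In the windows of the other genes, the first of the TSC2 windows held the ATF4 element TGATGNAAN (1 of 12 windows, 3.13% of all promoters) and the E-box CACGTG (1 of 12, 6.34%). The FOXO element TGTTTAC was found in 0 of 12 windows (2.98% of all), SESN3 among them. The hypoxia core ACGTG, which is also part of the E-box, was found in 3 of 12 (18.5% of all), those of DDIT4, TIGAR and TSC2, and the SP1 box GGGCGG in 9 of 12 (42.6% of all). SCO2 is not among these windows. A match of letters is not a bound site, and the absence of one says nothing of sequence outside the window.

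A wider search took 5000 bases on each side of every start for a full p53 element, 2 adjoining half-sites of 20 bases with at most 2 mismatches, and 8.01% of all starts had one. It was found at 3 genes of the group, shown with the core of each half-site in capitals. Of these, DDIT4 and PRKAB2 were not called after IR, and GLS2 had too few counts to be tested.
DDIT4: aagCATGtctaggCAAGccc
PRKAB2: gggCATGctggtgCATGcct
GLS2: aggCTTGctggggCATGcgc
The DDIT4 element, at chr10:72270764-72270783 and centred 3151 bases upstream, had 0 mismatches, which 0.214% of starts had. The PRKAB2 element, at chr1:147170721-147170740, and the GLS2 element, at chr12:56488113-56488132, had 2 mismatches each and were centred 1739 and 38 bases downstream of the start. None of the 6 genes called after IR held one within this distance of a start under this mismatch limit. The half-site marked at SESN1 is directly followed by ccacaagtca, which also holds the core CAAG. That pair has more mismatches than the search allowed. Whether p53 acts at any of these sequences was not tested.

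TIGAR, a bisphosphatase related to the glycolytic regulators, lies on the plus strand of chromosome 12 (chr12:4307763-4360028) and rose. It stood at 54.8, 62.1 and 58.6 CPM without IR and at 86.8, 81.2 and 70.5 CPM after IR. The groups did not overlap, and IR replicate 3 was the lowest of the IR libraries. The log2 fold change was 0.44 (SE 0.088, interval 0.24 to 0.63, adjusted p = 0.00559, edgeR), and the call was lost with effective lengths as offset (log2 fold change 0.48, adjusted p = 0.0795). TIGAR shares 1711 exonic bases, 18.1% of its own, with a gene on the same strand, ENSG00000285901, which went from 24.1 to 42.0 CPM, so that reads there were divided by the estimate. About 90.3% of the TPM of TIGAR in untreated cells came from TIGAR-202, a transcript with no defined coding sequence, and 8.08% from the coding form TIGAR-201, although TIGAR-201 held at least 63.4% of the counts in every library.

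GLS2 on the minus strand of chromosome 12 (chr12:56470944-56488414) was close to the limit of detection. Its estimated counts were 0, 1 and 0 in the untreated libraries and 2, 5 and 8 after IR. The IR libraries were all higher, from a sum of 1 count to a sum of 15, and without the filter on low counts the adjusted p was 0.0751 (edgeR). In untreated replicate 2 and IR replicates 1 and 2 the counts lay on GLS2-202, a transcript with a retained intron. The canonical coding form GLS2-201 was at 0 in every library. Counts on a coding form were seen in IR replicate 3 alone (5.73, on GLS2-215). SPRYD4 on the opposite strand covers 77.1% of the exonic bases of GLS2, and the use of strand in counting is not given in the sources used here, so that reads of the 2 genes may not have been separated.

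SCO2, on the minus strand of chromosome 22 (chr22:50523568-50526461), did not pass the test. It stood at 7.91, 6.38 and 10.0 CPM without IR and at 8.42, 10.9 and 13.5 CPM after IR. The groups overlapped, as untreated replicate 3 lay above IR replicate 1. The log2 fold change was 0.45 (SE 0.20, interval 0.0060 to 0.89, adjusted p = 0.115, edgeR), and single libraries moved it. It was 0.25 without IR replicate 3 (adjusted p = 0.359, edgeR), 0.30 without untreated replicate 2 (adjusted p = 0.326), and passed only without IR replicate 1 (0.59, adjusted p = 0.0460). NCAPH2 on the opposite strand covers 62.1% of the exonic bases of SCO2, and TYMP on the same strand 26.1%. SCO1, the related copper chaperone, had a log2 fold change of 0.058, and the ratio of SCO2 to SCO1 overlapped between groups (log2 difference 0.37, exact permutation p = 0.3).

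PRKAB1 and PRKAB2, the alternative beta subunits that hold the AMPK trimer together, differed in level and in test result. PRKAB1 (chr12:119667864-119681624, plus strand) stood at 23.3, 22.1 and 22.9 CPM without IR and at 25.7, 26.7 and 27.5 CPM after IR. The groups were apart by 2.37 CPM, and the log2 fold change was 0.23 (SE 0.074, interval 0.063 to 0.39, adjusted p = 0.0416, edgeR). This call was kept under 3 of the 14 other settings, the fewest of the 6 genes called, and was lost whichever library was left out (adjusted p from 0.0571 to 0.145, edgeR). PRKAB2 (chr1:147155106-147172550, minus strand) stood at 125, 133 and 130 CPM and then at 138, 131 and 123.3 CPM. Its groups overlapped fully, with a log2 fold change of 0.015 (SE 0.067, interval -0.13 to 0.16, adjusted p = 0.888, edgeR). The ratio of PRKAB1 to PRKAB2 had a log2 difference of 0.21 (exact permutation p = 0.2, adjusted p = 0.3), or 0.051 with the GC trend removed, so that the difference between the subunits was not shown.

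DDIT4 and TSC2 act in one route to mTORC1. DDIT4 (chr10:72273919-72276036, plus strand) stood at 20.7, 20.7 and 22.3 CPM without IR and at 19.9, 21.5 and 21.5 CPM after IR. Its groups overlapped, and the log2 fold change was -0.017 (SE 0.080, interval -0.20 to 0.16, adjusted p = 0.893, edgeR), an interval of 0.873 to 1.12 in fold. With the GC trend removed the value was -0.21 (interval -0.39 to -0.039, adjusted p = 0.0743, edgeR), which was not called either. TSC2 (chr16:2047967-2089491, plus strand) stood at 40.5, 41.8 and 36.5 CPM and then at 50.5, 47.3 and 54.3 CPM. All IR libraries were higher, with a log2 fold change of 0.36 (SE 0.081, interval 0.18 to 0.54, adjusted p = 0.00945, edgeR). The call was lost when the GC trend was removed (0.087, adjusted p = 0.352) or effective lengths were used (0.22, adjusted p = 0.283).

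TSC1, the partner of TSC2, fell from 90.9 ± 5.81 to 76.2 ± 1.01 CPM (log2 fold change -0.26, adjusted p = 0.0178, edgeR). The ratio of TSC2 to TSC1 was 0.463, 0.429 and 0.416 in the untreated libraries and 0.656, 0.617 and 0.724 after IR. The IR libraries were all higher, with a log2 difference of 0.61 (exact permutation p = 0.1, adjusted p = 0.2 over 6 ratios), or 0.31 with the GC trend removed. The TSC1 call was lost with effective lengths (adjusted p = 0.151, edgeR).

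Fold changes in these libraries moved with GC content. When all tested genes were divided into 10 bins of equal size by GC content, the median log2 fold change went from -0.19 in the lowest bin to 0.37 in the highest. SESN1 (41.1% GC) and TIGAR (45.7%) stood above genes of like GC content, whose bins had medians of -0.16 and -0.078. SESN2 (59.6%) stood above its bin as well, at 0.80 against 0.22. TSC2 (60.7%, bin at 0.22), SCO2 (64.4%, bin at 0.37) and SESN3 (37.5%, bin at -0.19) lay nearer to the medians of their bins. DDIT4 (58.1%) lay below its bin, at -0.017 against 0.22. With the trend removed, SESN1 had a log2 fold change of 1.00, SESN2 of 0.56, TIGAR of 0.50 and SCO2 of 0.046, and SESN1, SESN2 and TIGAR were called higher (3 of 9, against 11% of all genes) and 0 lower (against 13%). With effective lengths as offset, SESN1 and SESN2 were called higher (2 of 9, against 5.84%) and 0 lower (against 6.11%, with SESN3 at adjusted p = 0.104, edgeR).

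**Figure D2:**
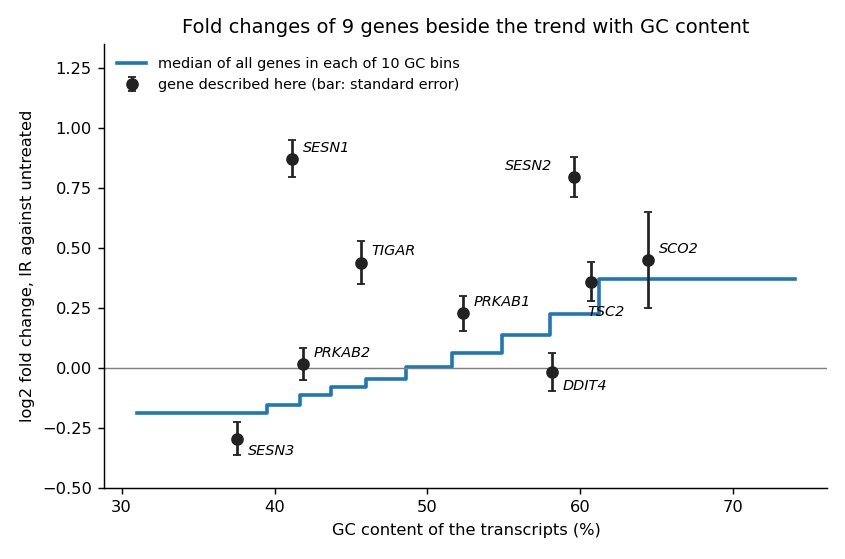
The horizontal axis gives the GC content of a gene's transcripts in percent and the vertical axis the log2 fold change of IR against untreated, with points for the 9 tested genes (bars, SE) and a stepped line for the median of all genes in each of 10 GC bins. SESN1, SESN2 and TIGAR lie above the line, and TSC2, SCO2 and SESN3 near it.

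**Figure D3:**
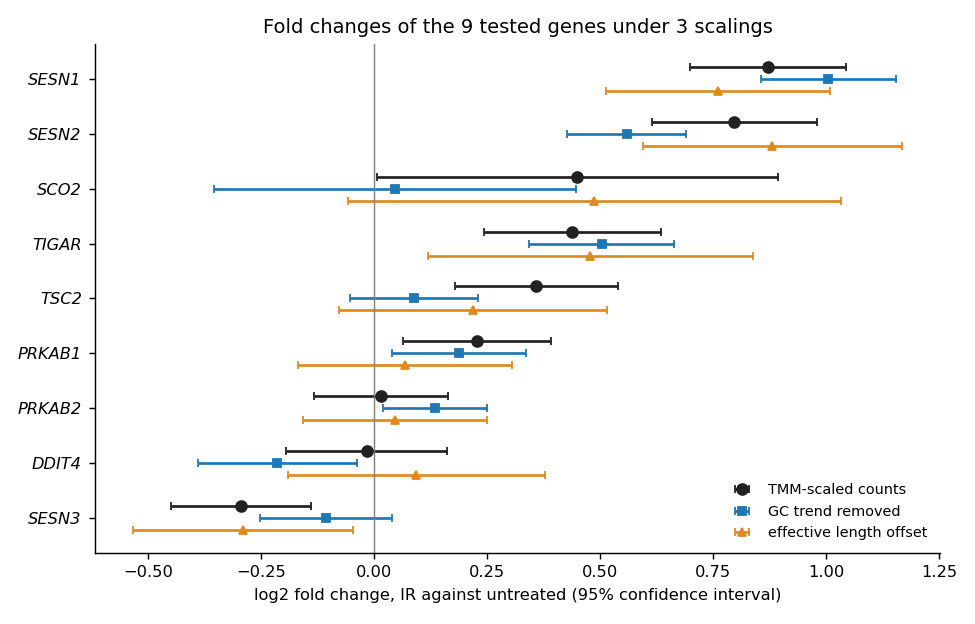
Log2 fold changes of IR against untreated on the horizontal axis, with 95% confidence intervals, for the 9 tested genes under TMM scaling (black), with the GC trend removed (blue) and with effective lengths as offset (orange). SESN1 and SESN2 stay above 0.5 under each of these, the values of TSC2 and SCO2 drop to 0.087 and 0.046 with the GC trend removed, and DDIT4 moves between -0.21 and 0.094.

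Around these genes, 16 lists covered the AMPK, TSC, mTORC1, amino acid sensing and metabolic pathways, with 185 of 191 genes tested once the 10 genes were left out. Of these, 36 (19.5%) were higher and 17 (9.19%) were lower after IR, beside 15.5% and 14.5% of all genes, and their median log2 fold change was 0.080.

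Of the partners of the AMPK beta subunits, 1 of 4 tested was lower. PRKAA1, a catalytic subunit, fell from 109 ± 3.27 to 83.3 ± 11.1 CPM (log2 fold change -0.39, adjusted p = 0.0112, edgeR, or 0.0602 with effective lengths). The other catalytic subunit PRKAA2 (-0.28, adjusted p = 0.0736) and the gamma subunits PRKAG1 (-0.0043) and PRKAG2 (-0.0020) did not pass. Among 7 upstream kinases and their partners, STRADB, a partner of the LKB1 kinase, was the 1 gene called (0.31, higher).

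Downstream of the TSC complex, RHEB (-0.11), MTOR (-0.17, adjusted p = 0.0877) and RPTOR (0.17), the defining subunit of mTORC1, did not pass the edgeR test. Of 9 mTOR complex subunits 1 was higher and 1 lower, both tied to mTOR complex 2 and both also called under either correction. RICTOR, its defining subunit, fell from 71.4 to 47.3 CPM (log2 fold change -0.60), and PRR5, which binds RICTOR, rose from 13.2 to 22.2 CPM (0.76, or 0.36 with the GC trend removed). Of 13 mTORC1 substrates and translation effectors, the kinase RPS6KB1 fell (-0.44), and the translation repressor EIF4EBP1 (0.26) and the autophagy kinase ULK1 (0.24) rose. With the GC trend removed EIF4EBP1 (0.0027) and ULK1 (-0.12) were no longer called, the latter with a change of sign, and neither was called with effective lengths, while the RPS6KB1 call held under both.

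In the amino acid branch through which sestrins act, 2 of 12 GATOR and KICSTOR genes were higher (WDR59, 0.29, and NPRL3, 0.33) and 2 were lower (ITFG2, -0.31, and DEPDC5, -0.29). With the GC trend removed WDR59 and ITFG2 were still called and NPRL3 (0.083) and DEPDC5 were not, and with effective lengths NPRL3 alone was called. Of 16 Rag GTPases, Ragulator subunits and other sensors, 7 were higher and 0 lower by edgeR, with 1 lower at an unadjusted p under 0.05, and DESeq2 called 6 higher and 0 lower. LAMTOR1, the anchor of Ragulator on the lysosome, rose from 98.3 ± 4.28 to 125.6 ± 9.05 CPM (log2 fold change 0.36), and LAMTOR5 (0.29), RRAGC (0.31) and RRAGD (0.42) rose as well. With the GC trend removed 5 of the 16 were higher and 1 lower, and with effective lengths 1 was higher.

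**Figure D4:**
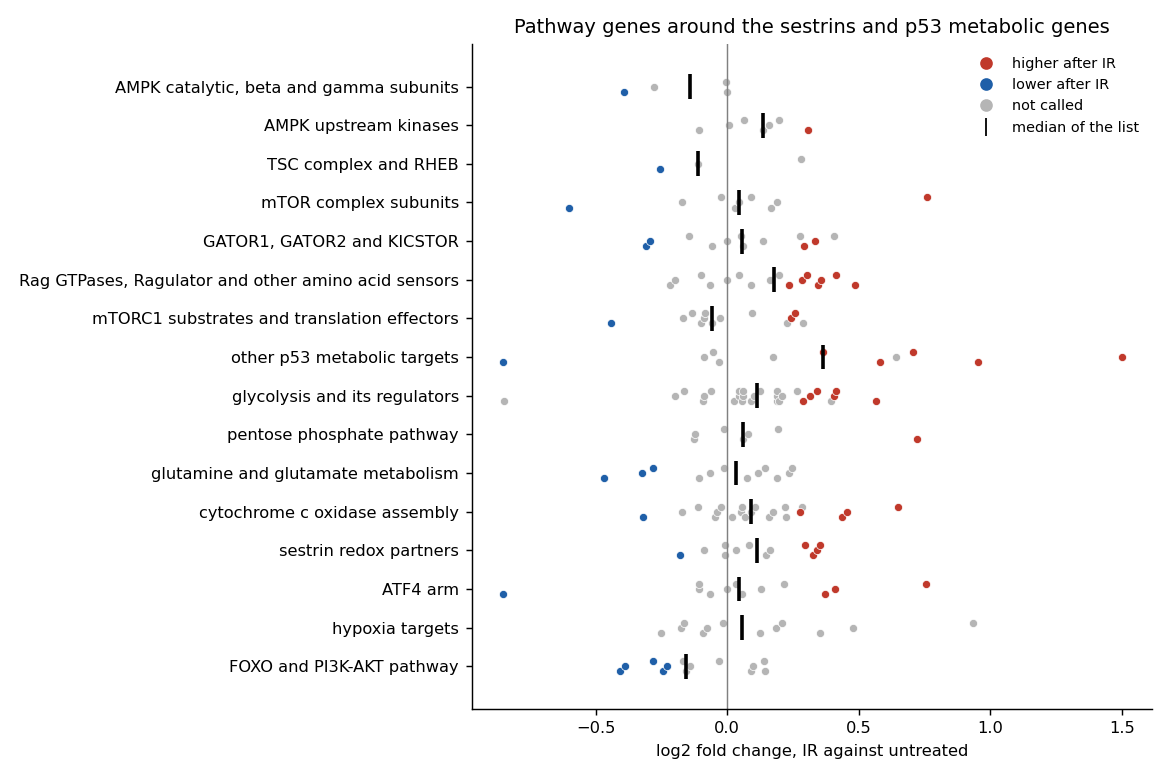
Each point is 1 gene of a list named on the vertical axis, placed by its log2 fold change of IR against untreated, red if higher, blue if lower and grey if not called by edgeR's quasi-likelihood test, with a bar at the median of the list. The other p53 metabolic targets have the highest median, 0.37, and the FOXO and PI3K-AKT genes the lowest, -0.155.

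Of 11 other p53 metabolic targets tested, 5 were higher and 1 lower, with a median log2 fold change of 0.37. FDXR, a mitochondrial reductase, stood at 57.4, 59.7 and 61.0 CPM without IR and at 143.9, 154.5 and 203.8 CPM after IR (log2 fold change 1.499, adjusted p = 1.56e-04, edgeR). TP53INP1, a stress-response protein, rose from 29.1 ± 2.48 to 56.4 ± 0.0953 CPM (0.95), and GAMT, of creatine synthesis, rose as well (0.71). SLC7A11, the cystine transporter that p53 is known to repress, fell from 96.9 ± 5.39 to 53.6 ± 5.27 CPM (-0.85, adjusted p = 2.63e-04, edgeR). With the GC trend removed the counts were again 5 and 1 and the median was 0.20, and with effective lengths 3 were higher and 1 lower.

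In the metabolic routes that TIGAR and GLS2 feed, edgeR called 6 of 28 glycolysis genes higher and 0 lower, with 1 lower at an unadjusted p under 0.05, and DESeq2 called 7 and 0. Among them were HK1 (0.31), PFKFB4 (0.41), ALDOC (0.57) and HK2 (0.34). With the GC trend removed 6 were higher and 1 lower, and with effective lengths 1 and 1. Of 7 pentose phosphate genes PGLS, the lactonase of the second step, was higher (0.72, or 0.30 with the GC trend removed). Of 12 genes of glutamine and glutamate metabolism edgeR and DESeq2 each called 0 higher and 3 lower, with 1 higher at an unadjusted p under 0.05, and the edgeR calls included the glutamine transporters SLC38A2 (-0.33) and SLC38A1 (-0.28), neither of which was called with the GC trend removed. Of 21 cytochrome c oxidase assembly genes 4 were higher, among them CMC1 (0.46), SURF1 (0.44) and COX14 (0.65), and COA1 was lower (-0.32), against 6 higher and 1 lower with the GC trend removed and 1 and 0 with effective lengths.

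Of 12 redox partners of the sestrins 4 were higher, the peroxiredoxins PRDX5 (0.35), PRDX4 (0.34) and PRDX6 (0.30) and the autophagy receptor SQSTM1 (0.32), and the thioredoxin reductase TXNRD1 was lower (-0.18). Removal of the GC trend gave 3 higher, without PRDX5 (0.094) and SQSTM1, and 0 lower, and with effective lengths 1 was higher. Among the routes that also control sestrins and DDIT4, 3 of 12 genes of the ATF4 arm were higher, ATF3 (0.76), PPP1R15A (0.41) and TRIB3 (0.37), and 1 was lower, SLC7A11. Of these only ATF3 and SLC7A11 were called with the GC trend removed, and with effective lengths TRIB3 was lost. ATF4 itself had a log2 fold change of 0.13 (adjusted p = 0.158, edgeR) and DDIT3 of 0.22 (adjusted p = 0.125). Of 12 hypoxia targets, the genes that share the oxygen-dependent control of DDIT4, edgeR called 0, with 3 at an unadjusted p under 0.05, and DESeq2 called 1, lower. Removal of the GC trend gave 1 higher and 1 lower among them, and effective lengths gave 0 higher and 2 lower. Of 13 FOXO and PI3K-AKT genes edgeR called 5 lower and 0 higher, with 0 higher also at an unadjusted p under 0.05 or by DESeq2, among them PIK3R1 (-0.28), PIK3CB (-0.24) and PIK3CA (-0.23), with 3 lower once the GC trend was removed and 0 with effective lengths.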

How the data were processed

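Poly(A) RNA of U-2 OS cells was sequenced from 3 untreated libraries and 3 libraries at 24 h after 4 Gy of IR, grouped by the sample labels. The authors assigned reads with kallisto against release 37 of the GENCODE annotation (GRCh38). The deposited estimated counts are raw values that sum to 18573309 to 45308792 per library. The deposited TPM values had been divided by effective length and scaled to the library by the authors. A total RNA kit is named in the paper's methods and an mRNA kit in the labels.

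Transcript identifiers were looked up in GENCODE release 44, which left out 2580 of 161171. Estimated counts were summed per gene, rounded, filtered with filterByExpr, scaled by TMM and tested with glmQLFTest (edgeR 4.0.16, R 4.3.3) with Benjamini-Hochberg adjustment over all genes at 0.05. CPM were computed with TMM-scaled library sizes, and standard errors come from the F statistic. Transcripts were tested in the same way, and ratios by an exact two-sided permutation test. Alternatives were DESeq2 1.42.0 (size factors, Wald test), the likelihood ratio test, other filters, a replicate block, removal of the GC trend of each library by a spline with 5 degrees of freedom, an effective length offset, and leaving out each library. The GC and effective length settings were not run for transcripts or for the ratio of the SESN1 transcripts. The edgeR fits were tested on simulated counts.

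The 10 genes and the pathway lists were chosen with earlier results of these data known, and the wider p53 search was added after seeing the values. Named list genes are up to 4 per list with the lowest p among those called, and named transcripts hold at least 10% of a gene's TPM in a group. TIGAR-201, TSC2-249, SESN1-201 and GLS2-201 fall outside that rule, and these, GLS2-202 and GLS2-215 were chosen after their values were seen. Replicates of a group differed beyond sampling noise (chi-square per gene 3.45 to 9.15 between untreated libraries, 5.92 between IR replicates 1 and 2, and 29.1 and 32.2 for IR replicate 3 against these), and none was counted as a copy. The file of IR replicate 3, the deepest library, has a mark in its name that may stand for a repeat, and whether it was sequenced again is not given in the sources used here. Sequences are from RefSeq (GRCh38.p14). Some genes that the rule selects are not reported here.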

Additional observations from a re-analysis of the deposited data

How the results depend on the processing

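SESN1 and SESN2 were called higher under each of the 14 other settings. The number of the 10 genes called higher, 5, was 3 with the GC trend removed, 2 with effective lengths as offset and 4 to 5 without 1 library, and the number called lower, 1, was 0 with either of these corrections and 0 to 1 without 1 library. Over all genes, 836 were higher and 875 lower with effective lengths, and 1294 to 2112 higher and 1244 to 2283 lower without 1 library. Of the pathway genes, 14 were higher and 8 lower with effective lengths, and 22 to 39 higher and 8 to 18 lower without 1 library. With a replicate block 4 of the 10 genes were higher and 1 lower, and PRKAB1 was lost (0.23, adjusted p = 0.0894, edgeR). Pathway genes then numbered 31 higher and 11 lower. Same-numbered libraries did not deviate together (correlations -0.017, 0.007 and -0.052). With so few libraries per group, this does not exclude that the numbers pair the samples.

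Of the genes not called, PRKAB2 changed sign without untreated or IR replicate 1 (range without 1 library -0.040 to 0.058), and DDIT4 with effective lengths (0.094) and without untreated replicate 3 or IR replicate 1 (range -0.037 to 0.022). Transcripts PRKAB1-203 (range -0.30 to 0.24) and TSC2-226 (-0.60 to 0.30) changed sign without untreated or IR replicate 3. Of member transcripts DESeq2 called 4 higher and 1 lower and the likelihood ratio test 1 higher, against 0 by the quasi-likelihood test, with 0 to 0 without 1 library. The log2 ratio of SESN1 to SESN2 was -0.11 from TPM values, and that of SCO2 to SCO1 was -0.047 with the GC trend removed. The causes were not tested. GLS2 had at most 8 counts in a library, too few for the test.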
